A study of Mus musculus with 18 samples.

Results

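In the liver of mice with a hepatocyte deletion of Ctcf (KO), 27336 regions carried the histone mark H3K27ac in all 3 KO libraries, of 53981 regions called in at least 1 of them. Of the 27336 regions, 10903 (39.9%, 95% Wilson interval 39.3 to 40.5) held a PPARg site of both KO libraries and 16433 did not. Among the latter, 13724 regions (50.2%) overlapped no PPARg peak of either KO, and 2709 (9.91%) overlapped a peak of 1 KO alone or peaks of both that did not form a common site. A region was the union of overlapping H3K27ac peaks, a PPARg site was the union of overlapping peaks of KO 7 and KO 8 called in both, and an overlap of at least 1 bp counted as holding. There were 19713 PPARg sites of both KO.

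All libraries described here were chromatin immunoprecipitation followed by sequencing (ChIP-seq) of liver from C57BL/6 mice aged 8 weeks with the genotype CTCF fl/fl Albcre+, in which Cre recombinase is driven by the albumin promoter and therefore acts in hepatocytes, while the other cells of the liver keep Ctcf. PPARg was profiled in KO 7 and KO 8, from males on standard chow fasted overnight, with tagmentation libraries and a Cell Signaling antibody. H3K27ac was profiled in KO 2, KO 3 and KO 4 with an abcam antibody and a ligation kit, and for these the labels give neither sex nor feeding state. Single KO libraries of H3K4me3 and H3K27me3 and 2 of CTCF served as further readouts, all 5 targets belong to a series of 18 samples, and the WT libraries were not used here. The labels do not say that the numbered libraries come from separate animals, so the spread between them may be technical. The 2 main targets differ in library kit, and possibly in animals and feeding, and any effect of these cannot be told apart from the relation between the targets. The growth text of the H3K27ac samples is written for a neural stem cell culture, while their source and tissue say liver. All 10 hepatocyte marker genes (among them Alb, Ttr, Apoa1 and Apob) had an H3K27ac region of all 3 KO within 5 kb, whereas of 20 genes of neurons, muscle, pluripotent and other foreign cells only Syp had one.

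PPARg is a nuclear receptor that binds DNA as a heterodimer with a retinoid X receptor (RXR), at direct repeats of a hexamer with a single base between the copies (the DR1 element, AGGTCANAGGTCA). It is best known for fat storage in adipocytes and for the lipid droplets of the fatty liver. PPARa, the main receptor of this family in hepatocytes, binds the same element and drives fatty acid oxidation in fasting. H3K27ac marks active promoters and enhancers, H3K4me3 marks promoters, and H3K27me3 is the mark of Polycomb repression.

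Promoter windows show what the sequence of both classes looks like. RefSeq start sites on build GRCm38.p6 gave 21263 windows of 300 bases (250 before to 50 after the start) for 17492 genes. Each start site counted once, so windows of a gene can overlap, as at Cyp3a25 with starts at 146009617 and 146009618. Windows are therefore not independent, while the intervals given for them treat them as such. Both strands were searched for the DR1 element with up to 2 mismatches at its 12 fixed letters, and for the single hexamer AGGTCA, which the element contains. The following 100-base stretches lie wholly upstream of the start, are given on the strand of the gene, and carry the match in capitals. They are the members of the gene lists used below with a PPARg site of both KO on the window and a match of at most 1 mismatch (Fabp1, Cyp3a25 and Gdf15), or 2 in the case of PPAR targets (Cd36, Mogat1 and Plin2), and were thus chosen for having a match. Fabp1 (chr6:71199768-71199867, plus strand) encodes the fatty acid carrier of the hepatocyte, Cyp3a25 (chr5:146009746-146009845, minus strand) a drug-metabolising enzyme and Gdf15 (chr8:70632457-70632556, minus strand) a stress hormone. Cd36 (chr5:17835904-17836003, minus strand) encodes a fatty acid translocase, Mogat1 (chr1:78510960-78511059, plus strand) an acyltransferase of triglyceride synthesis and Plin2 (chr4:86670210-86670309, minus strand) the main lipid droplet coat of hepatocytes.
Fabp1: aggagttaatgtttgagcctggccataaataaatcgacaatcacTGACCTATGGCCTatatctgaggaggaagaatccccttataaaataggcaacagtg
Cyp3a25: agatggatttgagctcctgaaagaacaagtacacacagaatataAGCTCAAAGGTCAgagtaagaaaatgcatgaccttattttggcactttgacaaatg
Gdf15: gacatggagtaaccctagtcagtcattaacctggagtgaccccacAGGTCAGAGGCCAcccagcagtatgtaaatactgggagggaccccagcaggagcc
Cd36: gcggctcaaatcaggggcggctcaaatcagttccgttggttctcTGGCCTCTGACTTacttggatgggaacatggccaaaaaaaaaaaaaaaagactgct
Mogat1: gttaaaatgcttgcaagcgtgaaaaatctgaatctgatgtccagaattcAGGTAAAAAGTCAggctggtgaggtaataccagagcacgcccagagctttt
Plin2: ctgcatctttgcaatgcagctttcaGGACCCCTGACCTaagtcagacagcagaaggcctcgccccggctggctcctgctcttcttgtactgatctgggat

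Beside them stand the promoters of Arpc4 (chr6:113378013-113378112, plus strand), a subunit of the actin-nucleating complex, and Ino80 (chr2:119477688-119477787, minus strand), a chromatin remodeller. They belong to the regions without any PPARg peak that had the highest H3K27ac fold, and the capitals mark each CG dinucleotide.
Arpc4: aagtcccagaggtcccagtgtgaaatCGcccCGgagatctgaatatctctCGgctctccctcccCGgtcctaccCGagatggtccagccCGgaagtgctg
Ino80: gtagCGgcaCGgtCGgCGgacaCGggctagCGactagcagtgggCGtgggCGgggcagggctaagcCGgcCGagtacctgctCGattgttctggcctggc

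The match at Fabp1 began 67 bases before the start site, and those at Gdf15, Cd36 and Mogat1 51 to 63 bases before it. Fold enrichment, the height of a peak over the background that the peak caller estimated, is the authors' value throughout. At the Fabp1 site (71198119 to 71201068) the PPARg fold was 33.5 in KO 7 and 30.5 in KO 8, and the surrounding H3K27ac region of 14894 bp had folds of 6.01, 5.53 and 5.31 in KO 2, KO 3 and KO 4. At Plin2 the PPARg folds were 47.6 and 38.2 and the H3K27ac folds 6.85, 7.60 and 6.22. These folds belong to whole sites, not to the printed letters. The summits of the Plin2 site lay at −1926 and −1974 bases from the start, while the match began at −225, and those of the Cyp3a25 site lay at −1725 and −2046, with the match at −184. At Gdf15 the PPARg folds at the promoter were lower, 8.02 and 7.30. The Cd36 start site used here (17835896) lies inside the gene's span of 17781690 to 17888959, away from its ends. The strongest Cd36 site lay elsewhere, at 17876060 to 17878482, with PPARg folds of 45.1 and 39.3. At the inner start site the PPARg folds were 16.0 and 25.3, in a region of 3931 bp with H3K27ac folds of 3.09, 3.49 and 3.74. Arpc4 and Ino80 had higher H3K27ac folds than any of these, 9.95, 9.50 and 8.78 at Arpc4 and 10.6, 8.23 and 8.30 at Ino80, with no PPARg peak.

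Over all windows, promoters under a PPARg site were poorer in CG dinucleotides than promoters in regions with no peak, but close to the average promoter. The observed over expected CG ratio had a median of 0.567 in all windows, with 56.3% G and C, and of 0.273 in windows in no region. It had a median of 0.579 in the 1240 windows that a site of both KO overlapped and 0.796 in the 6038 windows whose region held no peak, with 56.3% and 61.3% G and C. The hexamer AGGTCA occurred in 25.2% (22.8 to 27.7) and 10.1% (9.37 to 10.9) of these windows, against 14.7% of all windows. The DR1 element with at most 2 mismatches occurred in 9.44% (7.93 to 11.2) and 2.07% (1.74 to 2.46), against 3.32% of all windows. With at most 1 mismatch it occurred in 2.34% and 0.248%, against 0.480% of all. The 2141 windows in a region whose site lay elsewhere were nearer to those without a peak, with the hexamer in 12.5% and the DR1 element at 2 mismatches in 2.01%. Since few CG and the hexamer go together, windows were also split at a ratio of 0.5. Below it the hexamer occurred in 34.4% of 524 windows under a site and 17.2% of 942 without a peak, and above it in 18.4% of 716 and 8.79% of 5096. Outside chromosome 18, which was left out of this count alone, 238 of the windows under a site held the summits of both KO. A match describes the letters of these windows only, and the sequence under sites away from promoters was not analysed here.

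The 2 PPARg libraries chose nearly the same regions. KO 7 had a peak in 12584 of the 27336 regions and KO 8 in 12141. A peak of KO 7 alone lay in 1471 regions, a peak of KO 8 alone in 1028, and 228 held peaks of both that did not overlap. The share depended more on the H3K27ac side. Regions called in 1 H3K27ac library held a site of both KO in 5.45% of 18378 cases, those called in 2 libraries in 12.4% of 8267, and those called in all 3 in 39.9%. These regions also differed in width, with medians of 570, 1275 and 2889 bp, and 14604 of those called in 1 library came from KO 4, whose list was the longest (51311 peaks over 126 Mb, against 35480 and 39092 peaks over 79.5 and 91.2 Mb in KO 2 and KO 3). For single peak lists, over the 6 pairings of 1 PPARg with 1 H3K27ac library, 28.2% to 38.6% of H3K27ac peaks held a PPARg peak, lowest in both pairings of KO 4. Sequencing depth is unknown from lists of peaks, and Wilson intervals cover counting error over regions only.

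Regions with a PPARg site were wider. Their median width was 3866 bp (quartiles 2382.5 and 6661.5), against 2433 bp for regions with no peak and 2874 bp for regions with an unshared peak. The median with a site was 1.55 times the median of all regions without one (2491 bp). In the 6 pairings of single lists the ratio lay between 2.1 and 2.32, so the direction held in each. Sorted into 10 groups of equal size by width (deciles), 24.5% (22.9 to 26.2) of the narrowest regions (up to 1381 bp) and 74.0% (72.3 to 75.6) of the widest (7942 bp and more) held a site. The 3 narrowest deciles hardly differed, at 24.5%, 25.3% and 26.1%, and the share was higher in each decile after them. A wider region offers more room, and per length the order was different. There were 2.23 sites per 10 kb in the narrowest decile, 1.64 in the next and 1.21 to 1.40 in the other 8. A site that reached past a region's edge counted in full, which weighs most in narrow regions. In the narrowest decile the median width was 814 bp for sites and 1147 bp for regions, so the densities of narrow and wide regions are not strictly comparable. Of the 301 regions of at least 20 kb, 268 (89.0%, 85.0 to 92.1) held a site, and of the 29 of at least 40 kb 26 did.

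**Figure D1:**
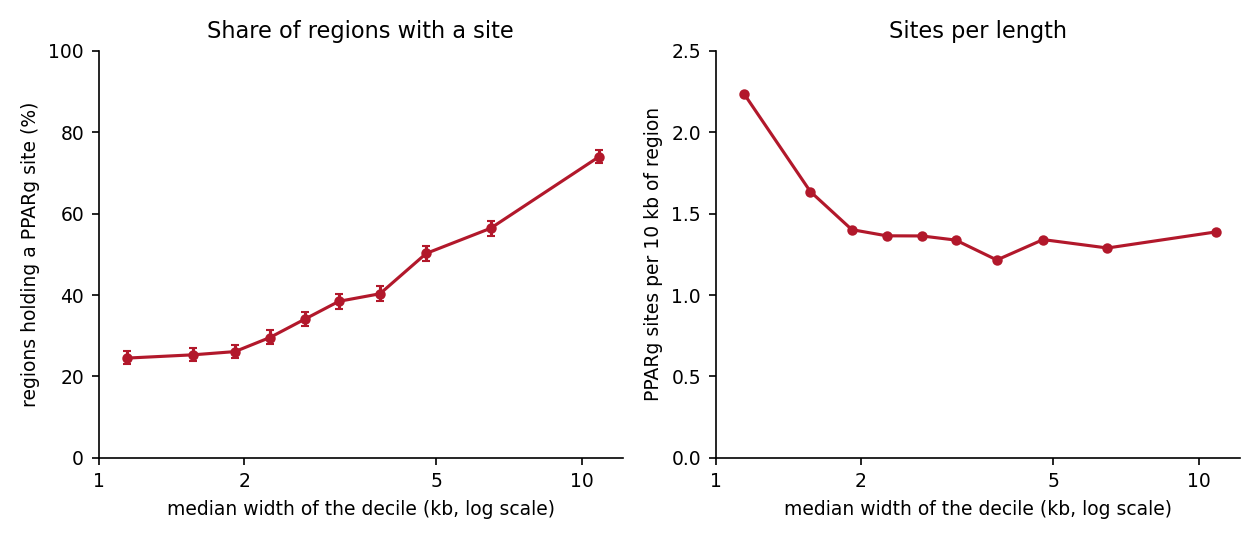
Share of H3K27ac regions of all 3 KO that held a PPARg site of both KO (left, in percent, bars are 95% Wilson intervals) and number of sites per 10 kb of region (right), for deciles of regions by width; the horizontal axes give each decile's median width in kb on a log scale. The share goes from 24.5% to 74.0% across the deciles, while sites per 10 kb are highest, at 2.23, in the narrowest decile. Sites that reach past a region's edge count in full, which weighs most in narrow regions.

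Most regions with a site had a single one. Of the 10903, 8109 (74.4%) held 1 site, 1849 held 2, 833 held 3 to 5 and 112 held 6 or more, with median widths of 3083, 6435, 11697 and 28225 bp. The sites covered a median of 33.9% of their region. In regions with 1 site the PPARg summit, the highest point of the peak, lay nearer to the centre than an even spread would put it. It fell into the inner 50% of the region in 74.7% (73.7 to 75.6) of the 8109 cases in KO 7 and in the same share in KO 8. Away from gene ends the share was 78.1% in both libraries, and at gene ends 64.6% and 64.7%.

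**Figure D2:**
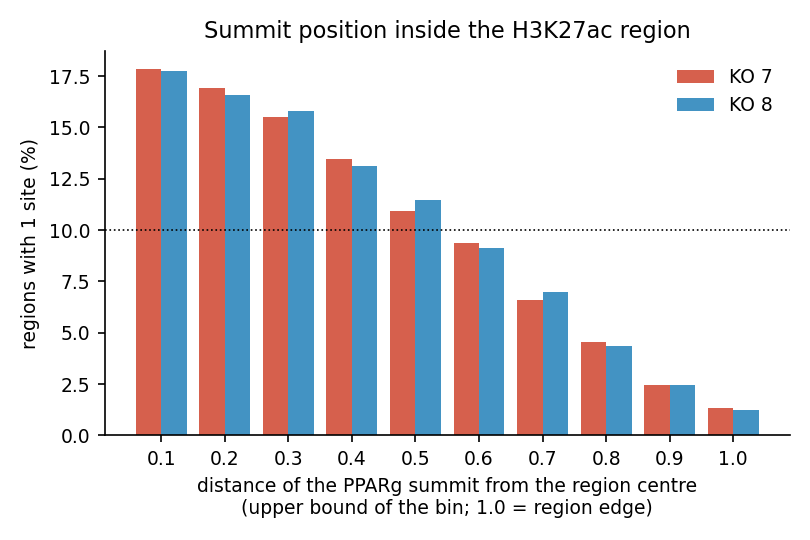
Position of the PPARg summit of KO 7 and KO 8 in the 8109 H3K27ac regions with 1 site, as distance from the region's centre in 10 equal steps to its edge; bars give the percent of regions and the dotted line the 10% of an even spread. In both libraries the innermost step holds the most summits (17.8% and 17.7%) and the outermost the fewest (1.34% and 1.23%).

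The widest regions with a site lay at genes of varied function, and some carried only weak PPARg sites. The widest of all (chromosome 15, 58972092 to 59086764, 114673 bp) covered Mtss1, a membrane-bending scaffold protein, and held 14 sites, the strongest with PPARg folds of 36.5 and 34.8. The next, of 99288 bp, lay at Rxra, the gene of the RXR partner of PPARg itself, and held 6 sites, the best of which reached only 11 and 6.84. The region at Shb (90040 bp), a signalling adaptor, held 12 sites, with folds up to 128 and 109. Tns1, Zmiz1, Actn4, Frmd8, Sh3bp5 and Zbtb16 followed with 53189 to 79138 bp and 4 to 12 sites, and the last of the 10, of 52387 bp with 9 sites, lay 60.5 kb from Ptpn1. The H3K27ac folds of these 10 regions ranged from 4.50 (Actn4, KO 3) to 8.03 (Zbtb16, KO 2).

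The 10 widest regions without any PPARg peak were mostly narrower and had lower folds. The widest (chromosome 5, 77354516 to 77408508, 53993 bp) lay at Igfbp7, which encodes a secreted protein abundant in endothelium, with H3K27ac folds of 3.70, 3.79 and 3.59. Ehd3, a membrane trafficking gene of liver endothelium, followed with 43827 bp and folds of 4.03, 3.89 and 4.36. The others lay at Stk40, Zeb2, Ptprb, Pth1r, Itga9, Capzb, Arvcf and Egfl7 and spanned 23351 to 31648 bp. Ptprb, a phosphatase of endothelium, and Egfl7, a protein secreted by it, are known vascular genes, and Zeb2 is a transcription factor of stellate and other non-hepatocyte cells. Stk40, Pth1r, Itga9, Capzb and Arvcf were not assigned to a cell type. A wide region at an endothelial gene could also hold a site, as the one of 41290 bp at Eng did (PPARg folds 8.52 and 9.55). H3K27ac folds in the 10 widest regions without a peak ranged from 2.91 to 4.44. The region at Pth1r was the one of the 10 that also overlapped the KO H3K27me3 peaks. In chromatin from whole liver, fewer cells carrying a mark and less of it per cell cannot be told apart.

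H3K27ac enrichment was higher in regions with a site, in each of the 3 libraries. The median fold was 4.40 with and 3.54 without a site in KO 2, 4.18 and 3.43 in KO 3, and 4.17 and 3.51 in KO 4. Regions with no peak at all had medians of 3.48, 3.38 and 3.47. The difference of medians was 0.864, 0.754 and 0.659, with a mean of 0.759 ± 0.103 (SD, n = 3). It was higher in 3 of 3 libraries, and the two-sided exact sign-flip permutation test over them gave p = 0.25, the smallest that 3 libraries allow. The difference grew with width. In the narrowest decile it was −0.00797, 0.0671 and −0.190 in KO 2, KO 3 and KO 4, so that the median with a site was the lower one in KO 2, barely, and in KO 4, and it remained lower in the next 2 deciles of KO 4. In the widest decile the medians were 5.19 against 3.75, 4.85 against 3.67 and 4.85 against 3.83. Regions without a site changed less from the narrowest to the widest decile than those with one. Their medians went from 3.30 to 3.75 in KO 2, from 3.17 to 3.67 in KO 3 and from 3.14 to 3.83 in KO 4.

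The difference was also present when promoters were set apart. In regions without H3K4me3 the medians were 3.96 with and 3.25 without a site in KO 2, 3.82 and 3.18 in KO 3, and 3.71 and 3.07 in KO 4, and within width deciles the median with a site was higher in 10 of 10 deciles of each library. In regions with H3K4me3 the differences were 1.18, 0.969 and 0.747, and the median with a site was higher in 9, 10 and 9 of 10 deciles. The difference of medians depended on the threshold for H3K27ac peaks. Restricted to H3K27ac peaks with a −log10 q of at least 5, 6097 regions remained, of which 3915 (64.2%) held a site, and the mean difference was −0.00662. This restriction selects on H3K27ac enrichment itself. Over deciles of H3K27ac fold without it, the share of regions with a site was higher in the top decile than in the ninth in each library, 66.7% against 59.9% in KO 2, 65.5% against 59.9% in KO 3 and 54.8% against 52.3% in KO 4.

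**Figure D3:**
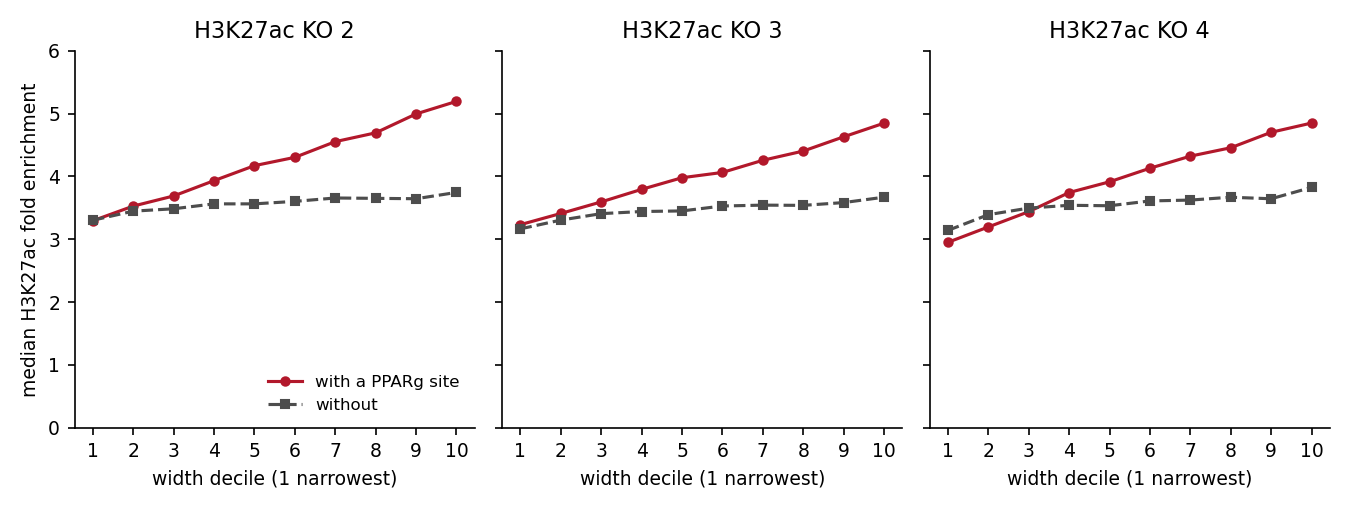
Median H3K27ac fold enrichment of regions with a PPARg site of both KO (circles) and without one (squares), by decile of region width, in the libraries KO 2, KO 3 and KO 4. The lines meet in the narrow deciles and part toward the widest, where they stand at 5.19 and 3.75 in KO 2.

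The regions with the highest mean H3K27ac fold came from both classes. With a site, they included one 30.3 kb from Arhgap5 (10.7, 9.86 and 10.7 in KO 2, KO 3 and KO 4), and those at Zfp36, whose protein destabilises messenger RNA (10.1, 8.96 and 9.52), at Tns2 and at Slc8b1, a mitochondrial ion exchanger. The best PPARg sites of these 4 were moderate, with folds of 9.52 to 38.1 in KO 7 and 10.1 to 25.3 in KO 8. With no peak, they lay at Arpc4 and Ino80, shown above, at Vdac2, a channel of the outer mitochondrial membrane (9.72, 8.98 and 8.91), at Stam and at Tcp11l2. These 5 regions spanned 2483 to 4537 bp, all within 1 kb of a gene end and all with H3K4me3.

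PPARg sites of better rank lay more often inside H3K27ac. Of the 19713 sites of both KO, 15463 (78.4%) overlapped a region of all 3 KO, 2013 a region of 1 or 2 KO only and 2237 none. Their median PPARg folds were 9.52, 8.02 and 7.01 in KO 7 and 8.98, 7.72 and 6.74 in KO 8. Ranked by −log10 q within each library, the share inside a region of all 3 KO was 69.9% (67.9 to 71.9) in the weakest decile of sites and 93.7% (92.5 to 94.7) in the strongest. The site inside Slc22a23, an orphan solute carrier, had the highest folds of all, 291 and 283, in a region of 8407 bp (chromosome 13, 34286407 to 34294813) with H3K27ac folds of 4.84, 5.94 and 5.51. Sites inside Pde4d, a phosphodiesterase (277 and 263), and Pik3c2g, a lipid kinase (289 and 253), lay away from gene ends and from H3K4me3. The Pik3c2g region of 1836 bp was narrower than its site of 3001 bp.

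Of the other 7 sites among the 10 of best rank, 3 were nearest to genes of the lists used below. Cyp4a10, a fatty acid hydroxylase, had PPARg folds of 239 and 227 in a region of 14533 bp. Eci2, an isomerase of fatty acid oxidation, had 246 and 213 in a region of 13142 bp. Hadha, a subunit of the mitochondrial trifunctional protein, had 215 and 226 in a region of 14494 bp that it shares with Hadhb, the other subunit. A site 51.0 kb from Abcd3, a peroxisomal fatty acid transporter, had 237 and 248, and the region over Txnip and Polr3gl, of 30266 bp, had 252 and 225. The last 2 had low folds. The sites 1035 kb from Lrrc4c and 29.3 kb from Rpusd4 had PPARg folds of only 5.14 and 6.04 and of 5.01 and 5.45, and H3K27ac folds down to 1.45 and 1.40 in KO 4. Of 260 sites above percentile 99 of −log10 q, 13 had a fold under 10 in both libraries. The PPARg lists are not named as freed of blacklisted regions, and whether these are PPARg sites was not tested. Without them 10898 regions held a site.

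Regions with a site lay less often at gene ends, but this depended on how regions were selected. Within 1 kb of either end of a protein-coding gene lay 30.5% (29.6 to 31.4) of regions with and 41.6% (40.8 to 42.3) of regions without a site, a difference of −11.1 percentage points (95% Newcombe interval −12.2 to −9.95). H3K4me3 overlapped 32.2% and 44.2%, a difference of −12.0 points (−13.1 to −10.8). In single peak lists, which include the many narrow peaks that 1 library alone called, the difference at gene ends was −3.64 and −3.49 points in KO 2, −1.39 and −1.02 in KO 3 and +4.38 and +4.37 in KO 4 (with PPARg KO 8 and KO 7). For H3K4me3 it ranged from −3.27 to 6.15 points over the same 6 pairings. The sign therefore differed between the 3 H3K27ac libraries, while the choice of PPARg library hardly moved the values. Among regions called in 1 H3K27ac library only 7.19% lay at a gene end, and among those called in 2 11.2%, against 37.2% of those called in all 3. Without H3K27ac KO 2 the differences in regions of all remaining libraries were −6.05 and −6.13 points.

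Within regions of all 3 KO, the classes differed most when narrow. In the narrowest decile 8.36% (6.49 to 10.7) of regions with a site lay at a gene end, against 38.5% (36.4 to 40.6) without. H3K4me3 overlapped 5.67% and 42.7% of them. Among regions with a site both shares were higher in wide regions, and in the widest decile they stood above those without: 53.9% against 43.8% at gene ends, and 61.9% against 49.0% with H3K4me3. Regions without a site had nearly the same shares in all deciles, 38.5% to 43.8% at gene ends.

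**Figure D4:**
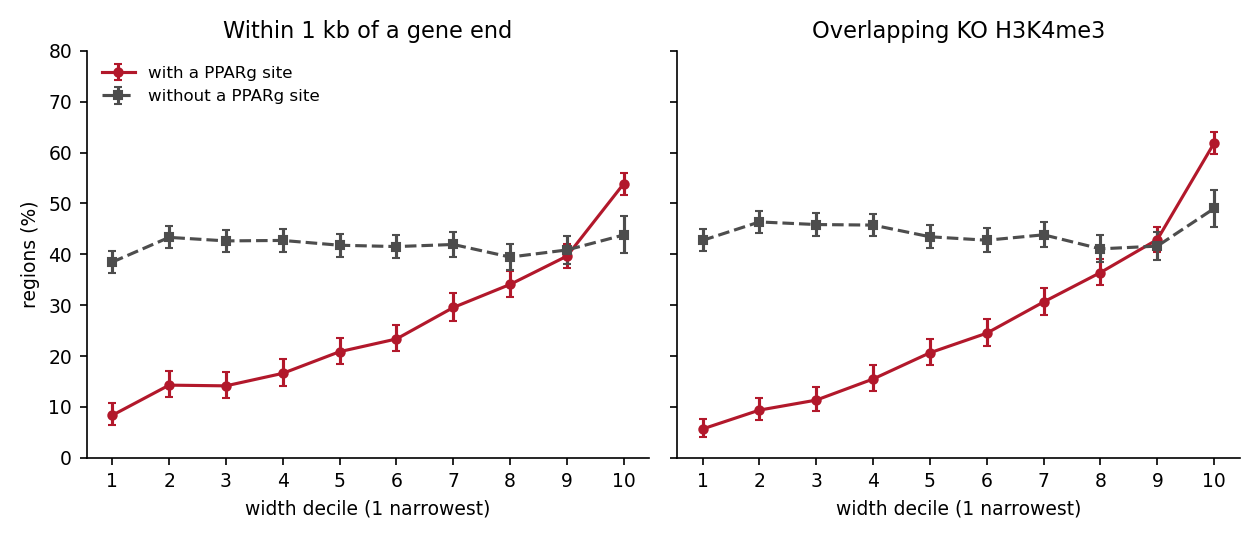
Percent of H3K27ac regions within 1 kb of a protein-coding gene end (left) and overlapping an H3K4me3 peak of the single KO library (right), by decile of region width, for regions with a PPARg site of both KO (circles) and without (squares); bars are 95% Wilson intervals. The series with a site climbs from 8.36% to 53.9% at gene ends and stands above the flat series without a site in the widest decile alone.

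By place, a site lay in 32.7% (31.8 to 33.6) of the 10158 regions at a gene end, 42.7% (41.7 to 43.7) of the 9985 inside a gene and 46.1% (44.9 to 47.2) of the 7193 between genes. Among regions at a gene end, those with H3K4me3 held a site in 30.7% of 8787 cases and those without it in 46.0% of 1371. Regions without H3K4me3 held one in 46.0%, 43.2% and 46.3% at gene ends, inside genes and between genes, so that place made little difference among them. With H3K4me3 the median width was 6195 bp at gene ends for regions with a site and 2446 bp for those without. Repressive chromatin was rare in both classes: H3K27me3 overlapped 16 regions with a site (0.147%, 0.0904 to 0.238) and 180 without (1.10%, 0.947 to 1.27). A CTCF site called in both KO, where liver cells other than hepatocytes keep the protein, overlapped 12.3% and 10.9%. The order depended on width. In the narrowest decile the CTCF shares were 4.18% with and 10.8% without a PPARg site, and in the widest 25.5% and 20.1%. The share with a PPARg site was the lower one up to decile 8 and the higher one in deciles 9 and 10.

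Genes were assigned a region when it lay within 5 kb of their span. Of 21887 protein-coding genes, 6215 (28.4%) had a region with a PPARg site, 6896 (31.5%) had regions but none with a site, and 8776 had no region called in all 3 KO. Of the 6215, 3433 also had a region without a site. Long genes had more room: the share with a site was 4.25% in the shortest decile of genes and 42.6% in the longest, and the median spans of the 3 classes were 27.3, 20.2 and 8.90 kb. Counts of the gene lists below are to be read against these shares. For lists in which nearly every gene had a region, the nearer background is that of the 13111 genes with any region, of which 6215 had a site. The median gene with a site had 2 sites, and its best one had PPARg folds of 13.0 and 12.5.

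Genes of fatty acid metabolism nearly all had a region with a site. All 28 genes of fatty acid oxidation and ketogenesis did (background 28.4%), with a median of 3 sites and a median span of 27.1 kb, and the median of their best PPARg folds was 59.9 in KO 7 and 49.4 in KO 8. Within 1 kb of a gene end the count was also 28 of 28, where the background was 17.9%. In several other lists the count was lower by that rule than within 5 kb of the span: 22 of 27 PPAR targets and lipid droplet genes, 6 of 20 receptors and coregulators, 14 of 24 genes of fatty acid and triglyceride synthesis, 16 of 24 of bile acid and cholesterol metabolism, 14 of 18 clock genes and 4 of 17 endothelial genes. Cpt1a, the gate of mitochondrial fatty acid import, had 7 sites in 2 of its 4 regions, with best folds of 26.6 and 24.1 and H3K27ac folds of 6.90, 6.69 and 6.44 in its widest region of 22507 bp. Cpt2, which completes the import, had folds of 31.1 and 27.5, Slc25a20, the carnitine carrier, 58.6 and 39.9, and Acadvl, the very long chain dehydrogenase, 24.0 and 21.9. The spread within the list was wide, from 6.01 and 8.98 at Crot, a peroxisomal acyltransferase, to 246 and 213 at Eci2.

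Of 27 PPAR targets and lipid droplet genes, 24 had a site in a region (background 28.4%), with median best folds of 49.3 and 38.2. Cd36 had 7 regions, 6 of them with a site, none wider than 4637 bp and with H3K27ac folds of 4.30, 3.91 and 3.20 in the widest. Plin4 and Plin5, lipid droplet coat genes that are neighbours, shared a region of 21819 bp with folds of 54.1 and 38.2 at its best site. Fabp4, the fatty acid carrier of adipocytes and macrophages, had a single site of 71.1 and 45.5 in a region of 3683 bp. The 3 exceptions were Lpl, the lipoprotein lipase, whose one region of 2819 bp had no site (H3K27ac folds 3.18, 2.82 and 2.60), and Cidea and Vldlr, which had no region. Cidea is a droplet protein of brown fat and Vldlr a lipoprotein receptor.

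Among the receptors, RXR partners and coregulators 17 of 20 had a site (background 28.4%), with median best folds of 13.0 and 10.7 and a median span of 98.1 kb. Ppara (chromosome 15, 85734910 to 85806851) had 14 sites in 3 of its 4 regions, the best with 101 and 98.3, and H3K27ac folds of 6.23, 5.89 and 5.93 in its widest region of 26302 bp. Pparg (chromosome 6, 115360879 to 115490404) had 5 sites in 2 of its 3 regions, the best with 17.5 and 25.3, and H3K27ac folds of 4.48, 4.14 and 4.29 in its widest region of 9741 bp. Ppard, the third receptor, had 1 site of 8.24 and 5.47 in 1 of 5 regions. Ppargc1b, a coactivator, had sites in all 5 of its regions, up to 68.5 and 56.5. Ep300, Med1 and Rxrb had regions without a site, and at Ep300, an acetyltransferase that places H3K27ac, the H3K27ac folds were 7.85, 7.15 and 8.31. The targeted gene Ctcf had a single region of 3651 bp with folds of 5.15, 5.14 and 6.25 and no site. The peak lists do not show whether its deletion was complete.

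Other hepatocyte functions showed like counts. The background was 28.4% of all genes, and 6215 of the 13111 genes with any region. Fatty acid and triglyceride synthesis had 23 of 24 genes with a site, Scd2, a desaturase best known from brain, being the exception, and folds at Fasn, Acaca, Acacb and Acly went from 8.02 and 5.61 (Acly) to 27.6 and 28.1 (Acacb). Xenobiotic metabolism had 27 of 28 (not Gstm1), the urea cycle and amino acid breakdown 23 of 24 (not Glul, the glutamine synthetase), and gluconeogenesis and glycogen 19 of 20 (not Pck2, the mitochondrial isoform). Pck1, its cytosolic counterpart, had 7 sites in a region of 30442 bp, with best folds of 50.8 and 39.4. Plasma proteins had 28 of 30, Vtn being among the exceptions, and Alb had folds of 39.1 and 41.0. Bile acid and cholesterol metabolism had 20 of 24. Cyp7a1, the enzyme that sets the pace of bile acid production, had best folds of 9.52 and 16.3. Insig1 and Lss had regions without a site and Sqle had no region, all known targets of the sterol-sensing factor SREBP2.

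Hepatocyte transcription factors had 17 of 20 (background 28.4%, and 6215 of the 13111 genes with any region). Hnf4a, the master regulator, had 13 sites in 3 regions. Foxa2, Onecut1 and Tbx3 had 1 region each without a site, and that of Foxa2 measured 14211 bp with folds of 5.69, 5.28 and 5.02. All 18 circadian clock genes had a site, with median best folds of 16.5 and 14.6. Rora, a nuclear receptor of the clock, had 20 regions, 16 of them with a site, and Per1, a repressor, had folds of 22.5 and 26.4. Immediate early and stress genes had 14 of 20. Fos, Fosb and Jun had regions without a site, at Jun of 7013 bp with H3K27ac folds of 7.25, 7.70 and 8.46, while Junb had 4 sites with best folds of 15.0 and 11.2. Hsp90aa1, Hspa1b and Nqo1 were the other 3 without one.

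Fewer of the genes active in every cell type had a region with a site than of the metabolic lists. All 30 cytosolic ribosomal protein genes had a region of all 3 KO, and in 24 none held a site. Genes with regions but no site made up 31.5% of all genes, and 6896 of the 13111 genes with any region. Rpl7 is an example, with H3K27ac folds of 7.47, 7.57 and 7.55. The 6 with a site included Rpl18, Rplp1, Rplp2, Rps2 and Rps6. Of these, 2 shared the site of a liver gene next to them, Rpl18 with the clock gene Dbp and Rplp2 with the lipase gene Pnpla2, and in the other 4 the best folds did not exceed 9.52 in KO 7. The ribosomal genes are short, with a median span of 3.61 kb, and their share with a site was 20% (9.51 to 37.3). All genes in the deciles of like span (medians of 2.86 and 5.67 kb) had shares of 18.1% and 22.8%. Only 46.3% and 54.7% of the genes in those deciles had any region, however, whereas all 30 ribosomal genes did, so these shares are not a like comparison. Of the 13111 genes of any span with a region, 6215 had a site. Housekeeping genes, with a median span of 16.9 kb near that of all genes (17.2 kb), had 14 of 24 with a site and 10 with regions but none. Their share of 58.3% (38.8 to 75.5) was above the background of 28.4%. Among all genes with any region, as all these had, 6215 of 13111 had a site. Actb and Gapdh had best folds of 10.8 and 9.92 and of 14.9 and 17.4. Cell cycle genes, a separate kind of list in which 7 had no region, had 5 of 20 with a site (Aurkb, Ccnb2, Cdc20, Cdk1 and Rrm2). Their share of 25% (11.2 to 46.9) was near the background of 28.4%.

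Markers of the other liver cells differed from list to list. Of 19 stellate cell and fibrosis genes, 14 had regions but none with a site, among them Pdgfrb, Lrat, Reln and Des, with H3K27ac folds of 2.46 to 3.61 in their widest regions. Tagln alone had one (11.5 and 16.3), and its region had folds of 6.15, 5.94 and 5.45. Of 17 endothelial genes all had a region, 8 with a site (47.1%, 26.2 to 69.0, background 28.4%) and 9 without. Among all genes with any region, 6215 of 13111 had a site, a share like that of the endothelial list. The endothelial median span was 42.9 kb, and 34.7% of all genes had a site in the decile with a median span of 44.3 kb. Stab1 and Kdr had no site in 4 regions each, Pecam1 had 1 of 9.52 and 9.996, and Stab2 had 5, up to 59.1 and 42.7. Kupffer cell and macrophage genes had 4 of 19 with a site (Cd68, Csf1r, Fcer1g and Spi1), 5 with regions only and 10 without a region, Clec4f and Adgre1 among them. The Fcer1g region, of 31224 bp, is also that of Apoa2 and Nr1i3. Cholangiocyte genes had 2 of 15, Prom1 among them, and Krt19, Krt7 and Epcam had no region. Lymphocyte genes had 4 of 17 (Cd3g, Cd4, Nkg7 and Zap70), 4 with regions only and 9 without a region, the Nkg7 region being that of Etfb, a gene of fatty acid oxidation. How far the mixture of cells sets these counts was not tested.

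**Figure D5:**
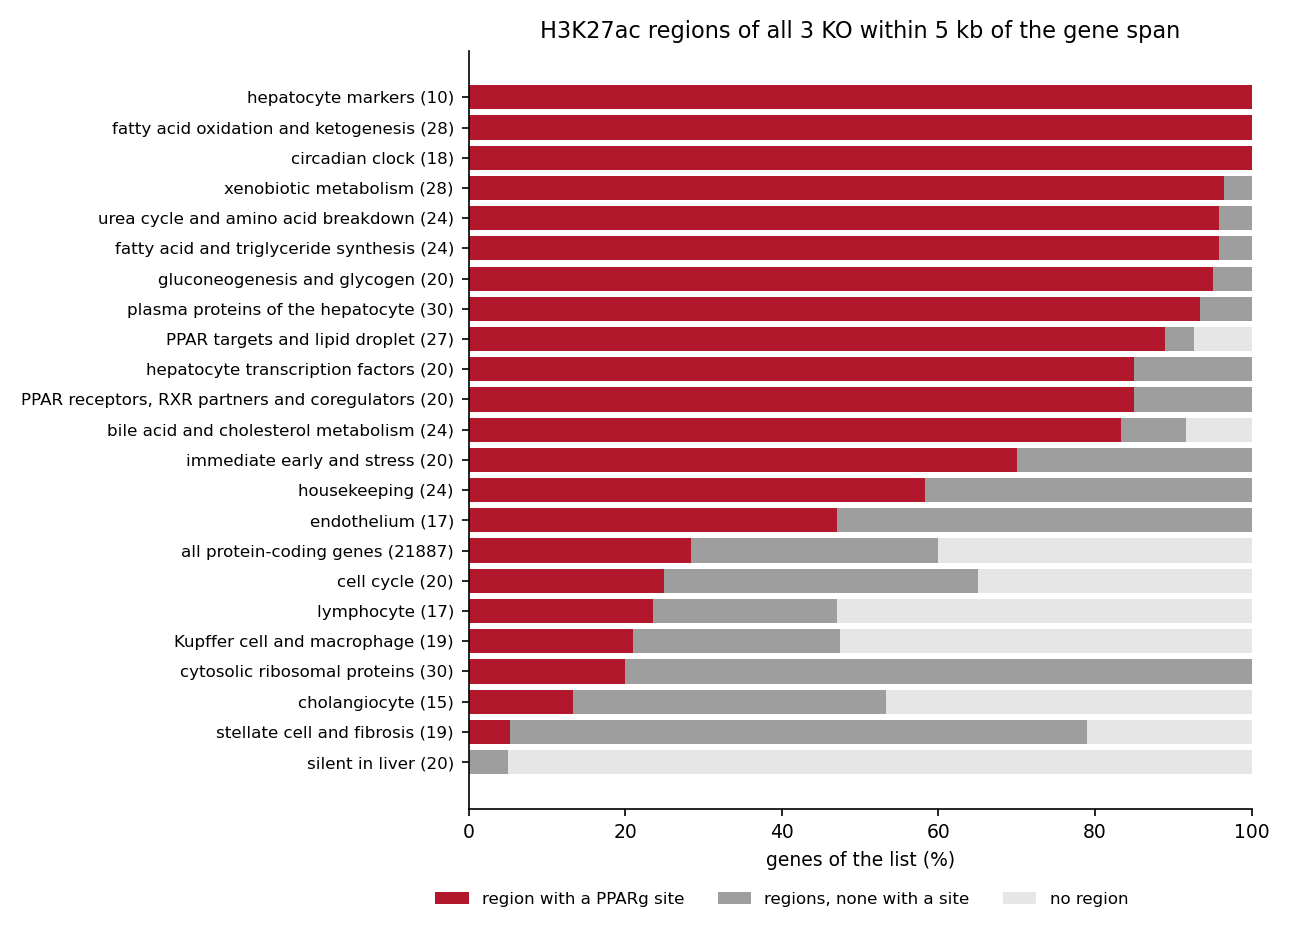
Percent of the genes of each list with an H3K27ac region of all 3 KO within 5 kb that held a PPARg site of both KO (red), with regions but none with a site (dark grey) and with no region (light grey); the number of genes stands in brackets. All protein-coding genes are at 28.4%, 31.5% and 40.1%, and in the share with a site 15 lists stand above them and 7 (cell cycle, lymphocyte, Kupffer cell, ribosomal, cholangiocyte, stellate cell and silent genes) below. The 95% Wilson intervals of the cell cycle, lymphocyte, Kupffer cell, ribosomal, cholangiocyte and endothelial lists, not drawn here, include 28.4%.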

How the data were processed

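Peak lists of KO liver, 1 per library, were used as deposited. Per the submitters' processing notes MACS2 2.1.2, BWA 0.7.12, deepTools 3.1.3 and Picard 1.77 were used with build mm10; the control for peak calling is not given in the sources used here. The authors' fold enrichment, a ratio, and their deposited −log10 p and −log10 q per peak were taken unchanged, and so was the summit position. Per the names of the deposited lists, patches and the mitochondrial chromosome were removed from the PPARg lists, without mention of blacklisted regions.

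Peaks on the autosomes, X and Y were merged as described, and a region's fold in a library was the width-weighted mean of its peaks. Genes and promoter sequences came from RefSeq GRCm38.p6, the assembly of mm10, and 474 of 476 entries of the 22 gene lists matched. Python 3.11.15, pandas 2.3.3 and scipy 1.17.1 were used, and the scripts were tested on simulated data. Regions are not replicates: the spread between libraries is given over the 6 pairings, which reuse 3 H3K27ac and 2 PPARg libraries and are not independent, and the only test was the exact sign-flip test over 3 libraries. Named genes were those nearest the 10 best-ranked PPARg sites in regions, the 10 widest regions with a site and without a peak, the 5 of highest fold of each kind, the first 4 of each list, small classes of 5 or fewer, and Pparg, Ppara and Ctcf. Not all are described, and others (such as Crot, Fabp4, Ppargc1b, Rora and Ep300) were chosen after their values were seen. The members and lists were chosen with earlier results of these data known. Alternatives were stricter thresholds, other overlap rules, lists of equal length, other gene windows and leaving out each library.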

Additional observations from a re-analysis of the deposited data

How the results depend on the processing

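The 6 results were recomputed under alternatives, 4 of which were added after seeing the data. With PPARg peaks of −log10 q of at least 10, 6615 regions held a site and the width ratio was 1.66. With H3K27ac peaks of −log10 q of at least 5, 3915 regions and 3617 genes had one, the width ratio was 1.95, the fold difference reversed to −0.00662, and the differences at gene ends and in H3K4me3 were −31.1 and −34.7 points. With the intersection of the 3 H3K27ac lists the width ratio was 1.90. With 1 kb around gene ends in place of 5 kb around the span, 3910 genes were counted. In regions without H3K4me3, an added setting, 3289 genes had a region with a site, the width ratio was 1.24, and the difference at gene ends reversed to 0.444 points. Fewer peaks or regions entered the stricter settings and the one without H3K4me3, and beyond this the cause was not tested. Leaving out 1 library at a time gave width ratios of 1.51 to 1.68, differences at gene ends of −10.4 to −6.05 points and H3K4me3 differences of −11.4 to −6.13 points, the smallest ones without H3K27ac KO 2. With H3K27ac lists of 35480 peaks and PPARg lists of 26349 peaks each, 10435 regions held a site. The fold difference was 0.665 to 0.888 in its other 15 settings. No paired analysis was possible because no groups are compared and the PPARg and H3K27ac libraries share no replicate number. Depth is unknown, so an absent peak does not show absent binding.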

Other observations

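The share of H3K27ac regions with a PPARg site was lower on chromosome X than on any autosome. On X 94 of 404 regions (23.3%, 95% Wilson interval 19.4 to 27.6) held a site of both KO, while the autosomes ranged from 33.7% (31.1 to 36.4) on chromosome 17 to 44.7% (42.3 to 47.2) on chromosome 6. X-linked hepatocyte genes with a site included Otc, of the urea cycle, with 1 site of 12.5 and 10.1, and the clotting factor gene F9, with sites in both of its regions. Regions with no PPARg peak lay a median of 35.4 kb from the nearest site of both KO, with 21.1% of them within 10 kb and 23.3% over 100 kb away. The letters TATAAA, searched on the gene's strand 45 to 6 bases before the start, occurred in 2.82% of promoter windows under a PPARg site, the same as the 2.82% of all windows. They occurred in 0.878% of windows in regions with no peak and 4.32% of windows in no region.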
